A study of Mus musculus with 19 samples.

Results

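Motile cilium genes, whose products build or regulate the moving axoneme, are described here in sorted mouse nasal epithelial cells. They were taken from the 26221 rows of the authors' normalized table by symbol: every gene whose symbol starts with Dnah, Dnaic, Dnai, Cfap, Rsph, Tekt, Drc or Dnaaf, plus Foxj1, Mcidas, Ccdc39, Ccdc40, Ccdc153, Tppp3, Pifo, Sntn, Spag6l and Ak7. This gave 79 genes. The rule uses symbols only, with no threshold on a measured value. All cells came from naive ChAT(BAC)-eGFP mice, a B6.Cg strain with the transgene Tg(RP23-268L19-EGFP)2Mik, which places enhanced green fluorescent protein (eGFP) under regulatory sequence of Chat, the gene of the enzyme that makes acetylcholine. Every group therefore carries the transgene, and no wild-type group is included. Dispase followed by papain freed the cells of the nose, propidium iodide marked dead cells for removal, and CD45- EpCAM+ cells were sorted by flow cytometry into TCL buffer with RNAprotect. The eGFP+ cells, called brush cells in the labels, were divided by forward and side scatter into FSClow/SSClow (FSClow, 9 libraries) and FSChi/SSChi (FSChi, 5 libraries), and the eGFP- cells form the EpCAM group (5 libraries). Brush or tuft cells are chemosensory epithelial cells. The labels give neither the age of the mice nor whether each library is a different animal. All p-values therefore rest on the variation among libraries, part or all of which may be technical.

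A motile axoneme is a ring of microtubule doublets around a central pair of microtubules. Outer and inner dynein arms on the doublets drive the beat, radial spokes and the nexin link regulate it, and a ruler complex of CCDC39 and CCDC40 sets the spacing of these parts along the doublet. Dynein arms are assembled in the cytoplasm by dedicated assembly factors, and the transcription factor FOXJ1, together with RFX factors that bind the X-box motif, drives the genes. In the nose, multiciliated cells of the respiratory epithelium carry beating cilia, while olfactory sensory neurons carry sensory cilia that do not beat and are described as having a central pair but no dynein arms.

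Total counts ranged from 1348428 (FSChi 2) to 7477695 (FSChi 3) per library. Levels are given as CPM (reads per 1e6, with the library total adjusted by TMM), and 1 read in FSChi 2 was worth 0.804 CPM, so values near that size in that library are single reads. Of the 79 genes, 57 passed the filter on low counts and were tested with edgeR, and 22 did not. The 4 ciliated cell markers Foxj1, Dnah5, Ccdc39 and Tekt1 are themselves among the 79 genes, so they are no separate check of the set. They summed to 67.5 to 79.3 CPM in EpCAM, 8.19 to 20.9 CPM in FSClow and 2.41 to 41.6 CPM in FSChi. The sorted populations matched their labels, as 8 tuft or brush cell markers, Chat among them, summed to 7048 to 10560.0 CPM in FSClow, 6181 to 10330.0 CPM in FSChi and 11.04 to 21.9 CPM in EpCAM. One FSChi library, FSChi 2, stood apart: of 57 tested genes, 24 had no read in it, against 0 to 3 in the other FSChi libraries, 2 to 22 in FSClow libraries and 0 or 1 in EpCAM libraries. The olfactory sensory neuron marker Omp also stood at 1.61 CPM in FSChi 2, against 729 to 1796 CPM in the other FSChi libraries. The deposited single-library files for FSChi 3, 4 and 5 and for EpCAM 1 and 2 did not match best the count columns of the same name (14 of 19 did), and the FSChi 3 file held only 6807 expected counts. These mismatches lie within groups, and tests rest on the count table unless another source is named.

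Promoters are shown first, because a motif that the choice by symbol did not use lies in the windows of 20 of the 64 genes that have one. RefSeq promoter windows of GRCm38.p6, 300 bases running from 250 before to 50 after a gene start, were at hand for 64 of the 79 genes in 72 windows. A gene start here is any annotated start of the gene and can lie inside its full span. The Pifo, Tekt4, Dnaaf2 and Dnah7a stretches below lie inside the full span of their gene, as does most of the Dnah7c stretch. The minus-strand gene Pifo spans 105996957 to 106014646, and the plus-strand gene Tekt4 spans 25454549 to 25476602. The minus-strand genes Dnaaf2 and Dnah7a span 69189087 to 69200083 and 53396995 to 53707301, and the plus-strand gene Dnah7c spans 46425428 to 46807477. An X-box was searched as GTTNC, then 2 to 5 bases of any kind, then GNAAC, a pattern that is its own reverse complement. It occurred in 21 of the 72 windows (29.2%), against 883 of all 32851 mouse windows (2.69%). The shorter motif GTTGCC or GTTGCT on either strand, which can lie inside an X-box, occurred in 70.8% of the windows against 25.1% of all windows, and the forkhead motif TGTTTAC on either strand in 8.33% against 3.65%. The 20 genes with an X-box included 11 that were lower in FSClow than in EpCAM and 2 that were higher (Tekt5 and Rsph3b). A further 2 were not called (Cfap57 and Dnaaf2) and 5 were not tested. An X-box lay in 29.7% of the 37 genes with a window that were called lower and 40.0% of the 5 called higher. Of all 64 genes with a window, 31.25% had one. The examples printed here show the motif in genes of unlike behaviour in the sort: Tekt5 was higher in eGFP+ cells, Dnah9, Pifo and Tekt2 were lower in FSClow, Dnaaf2 was not called in any comparison, and Dnah7a, Dnah7c and Tekt4 were too low to test. Each is a 60-base stretch read 5′ to 3′ on the gene's strand, credited to RefSeq, with the X-box in capitals.
Tekt5: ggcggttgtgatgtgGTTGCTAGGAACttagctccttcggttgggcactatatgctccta
Dnah9: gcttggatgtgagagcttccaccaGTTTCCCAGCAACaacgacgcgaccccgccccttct
Pifo: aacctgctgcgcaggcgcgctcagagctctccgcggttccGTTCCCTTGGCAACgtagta
Tekt2: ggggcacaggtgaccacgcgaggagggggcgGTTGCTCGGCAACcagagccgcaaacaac
Dnaaf2: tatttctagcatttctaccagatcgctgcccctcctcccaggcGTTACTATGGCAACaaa
Tekt4: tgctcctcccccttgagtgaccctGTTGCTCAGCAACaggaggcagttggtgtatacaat
Dnah7a: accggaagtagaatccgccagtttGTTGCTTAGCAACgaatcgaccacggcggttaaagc
Dnah7c: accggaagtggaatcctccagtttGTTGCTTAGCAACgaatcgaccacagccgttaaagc
Their positions in GRCm38.p6 are chr16:10395646-10395705 (minus strand) for Tekt5, chr11:66168598-66168657 (minus strand) for Dnah9, chr3:106001498-106001557 (minus strand) for Pifo and chr4:126325689-126325748 (minus strand) for Tekt2. Those of the others are chr12:69198430-69198489 (minus strand) for Dnaaf2, chr17:25471530-25471589 (plus strand) for Tekt4, chr1:53706806-53706865 (minus strand) for Dnah7a and chr1:46425425-46425484 (plus strand) for Dnah7c. The paralogous dynein genes Dnah7a and Dnah7c carry the same X-box letters. In 19 of the 20 genes a match began no more than 100 bases before the gene start, and the Tekt5 match began 235 bases before it. A match describes the letters of the window only, and binding was not measured.

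**Figure D1:**
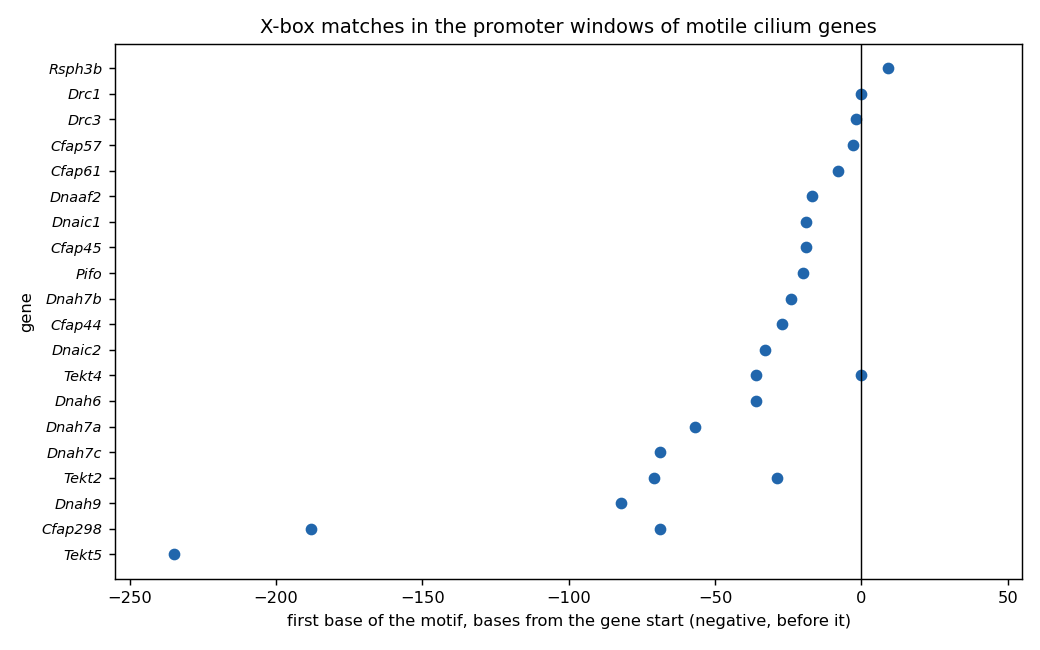
Positions of the 23 X-box matches in the promoter windows of 20 motile cilium genes. Each point is the first base of a match, in bases from the annotated gene start of its window (0). Some of these starts lie inside the gene, and genes are ordered by their most distant match. Most matches lie within 100 bases before the start, with Tekt5 (-235) and one of the Cfap298 matches (-188) farther away; the pair of Tekt2 points is the same site seen from 2 gene starts.

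Of the motile cilium genes that could be tested, most were lower in FSClow cells than in eGFP- epithelium, and 5 were higher in both eGFP+ gates. In FSClow against EpCAM, 43 of the 57 tested genes were lower and 5 were higher (edgeR adjusted p under 0.05), with 9 not called. Over all 13340 genes tested, 23.1% were lower and 22.0% were higher (45.1% in either direction). The median log2 fold change of the 57 was -2.52, against 0.05 over all genes. A gene that passed the filter only through EpCAM had to be lower in the eGFP+ cells, so these counts and medians describe the 57 and do not speak for all 79 genes. With relative log expression scaling the split over all genes moved to 27.2% lower and 16.8% higher, and the members' counts were then 47 and 5. In bulk RNA, fewer cells of a type and less RNA per cell cannot be told apart.

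The FSChi cells lay between the other groups for many of the genes. In FSChi against EpCAM, 23 of the 57 were lower and 5 higher, where 12.2% and 13.5% of all tested genes were (25.6% either way), and 29 were not called; the median was -1.28 against -0.02 over all genes. In FSChi against FSClow, 21 were higher and 2 lower, where 15.5% and 9.30% of all tested genes were (24.8% either way), and 34 were not called; the median was 0.83 against -0.01. The 2 lower genes were Rsph3a and Rsph3b, near-identical copies that amount to 1 uncertain measurement and that are also 2 of the 5 genes higher than in EpCAM in each gate. The first 2 comparisons share the EpCAM libraries, and the last shares its libraries with both. Without FSChi 2, 19 genes were lower and 5 higher in FSChi than in EpCAM, and 27 were higher and 2 lower in FSChi than in FSClow. Using only the 14 libraries matched best by their own file, which leaves FSChi 1 and 2 and EpCAM 3 to 5 beside all FSClow libraries, the count lower in FSChi than in EpCAM fell to 7.

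**Figure D2:**
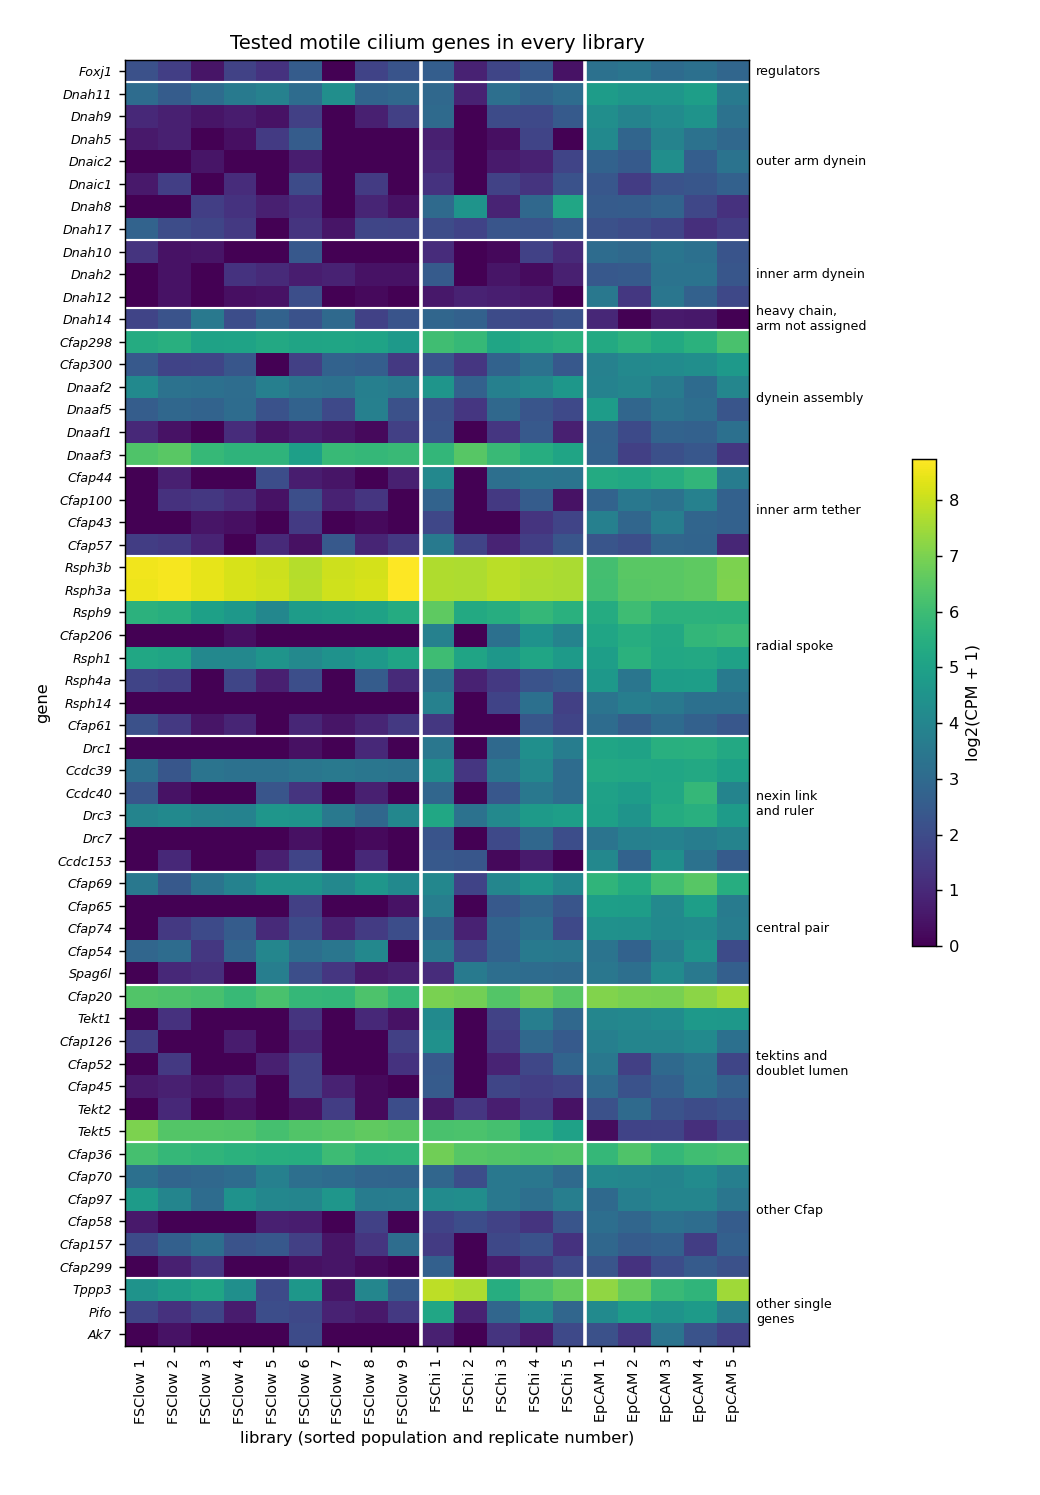
Levels of the 57 tested motile cilium genes (rows, grouped by role) in the 19 libraries (columns), as log2(CPM + 1) on a colour scale from dark (0) to yellow. Most rows are bright in EpCAM and dark in FSClow; Tekt5, Dnaaf3 and Dnah14 show the opposite, Rsph3a and Rsph3b are bright throughout, and FSChi 2 is dark in many rows where the other FSChi libraries are not.

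**Figure D3:**
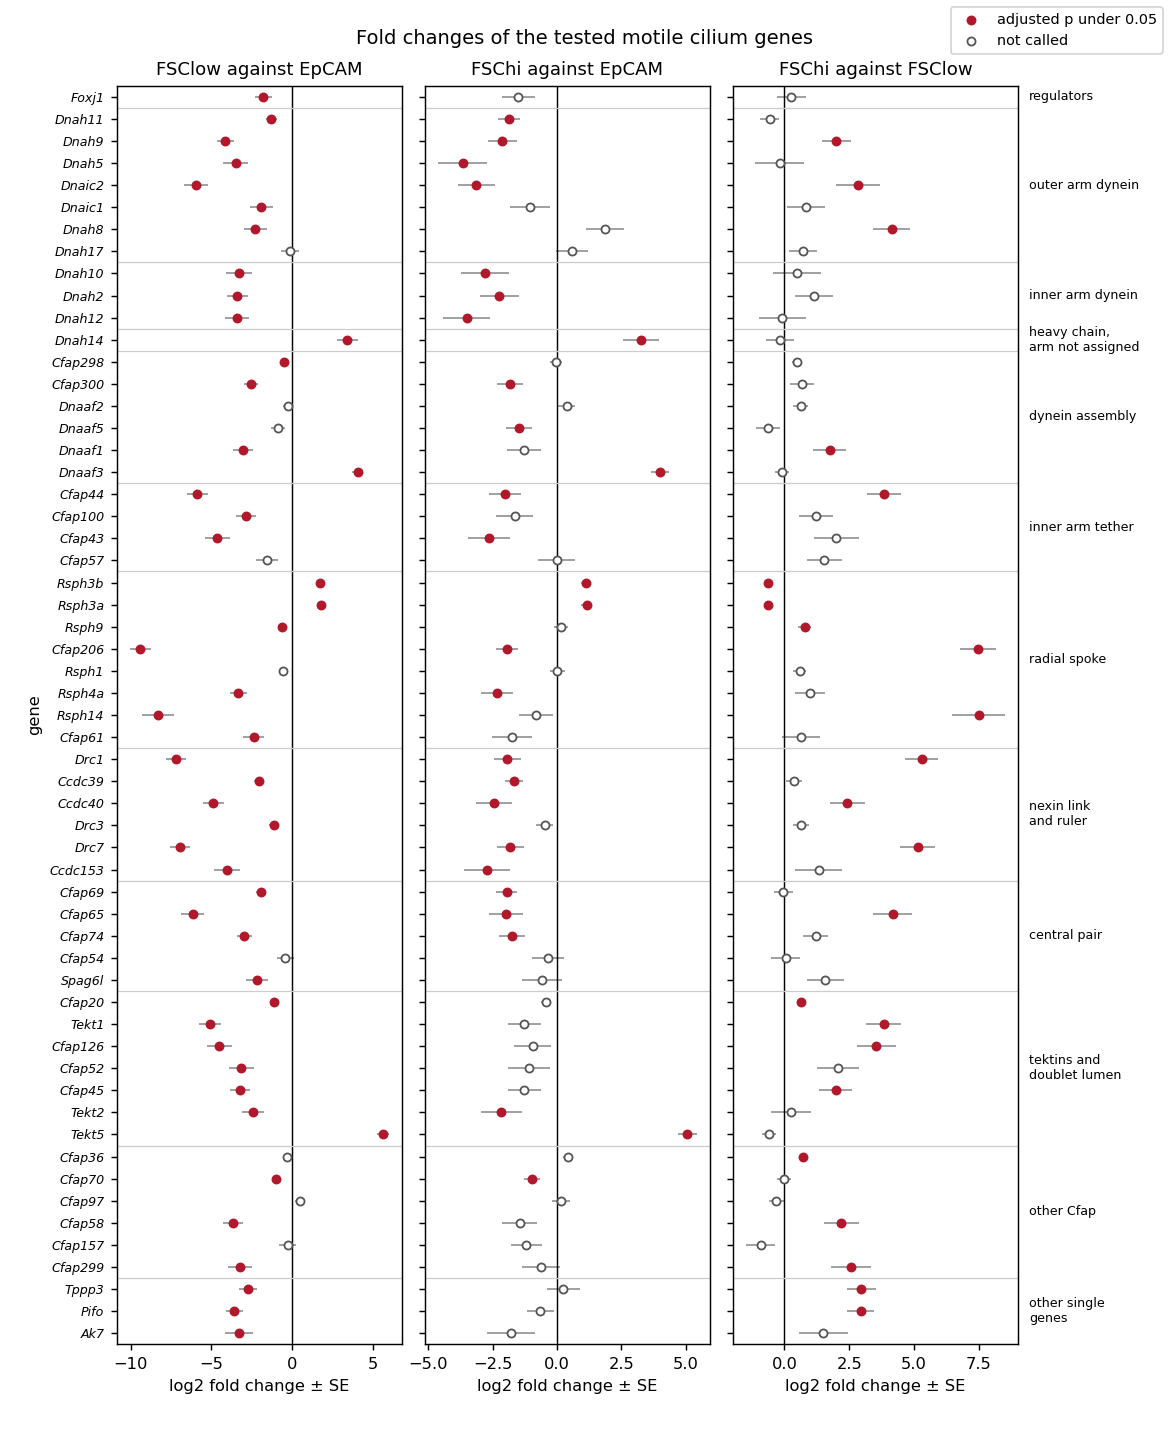
Log2 fold changes with their SE from the edgeR fit for the 57 tested genes in 3 comparisons, with a horizontal axis of its own for each; filled points have an adjusted p under 0.05. Points lie mostly left of 0 in the first panel (43 called lower, 5 higher) and mostly right of 0 in the last (21 called higher, 2 lower). The fitted values of Rsph14 against FSClow, where it had no read, depend on the fit's prior count.

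Among regulators, Foxj1 (Entrez 15223, chromosome 11, 116330704 to 116335499, GRCm38.p6), the transcription factor gene of the motile cilium programme, was low in every group and lower in FSClow than in EpCAM. It stood at 0 to 4.84 CPM (median 2.29) in FSClow, at 5.17, 0.803, 2.55, 4.29 and 0.354 CPM in FSChi 1 to 5 and at 8.64, 9.51, 7.30, 8.26 and 6.33 CPM in EpCAM 1 to 5. All EpCAM libraries lay above all libraries of the other groups, and the eGFP+ gates overlapped. The difference from EpCAM was -1.77 ± 0.54 (SE, edgeR adjusted p = 0.0092) on the log2 scale in FSClow and -1.50 ± 0.63 (SE, edgeR adjusted p = 0.082) in FSChi, where it was not called, though DESeq2 called it (-1.62, adjusted p = 0.0322). The FSClow call was lost over the 14 libraries matched by their own file (edgeR adjusted p = 0.0516), and the FSChi difference was also called without FSChi 1 (-1.90, adjusted p = 0.0492) and without FSClow 7 (adjusted p = 0.0425). Mcidas, which encodes multicilin, an activator of multiciliated cell fate, had 70 reads over all libraries, a highest level of 2.995 CPM, and did not pass the filter.

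Of 7 outer arm dynein genes, 6 were lower in FSClow than in EpCAM and 4 were lower in FSChi. Over all tested genes, 23.1% were lower and 22.0% higher in FSClow than in EpCAM, and 12.2% and 13.5% in FSChi. The same shares apply to the counts by role below, and no role was tested against them. Dnah5 (Entrez 110082, chromosome 15, 28154854 to 28472045), an outer arm heavy chain gene, ran from 0 to 4.84 CPM (median 0.287) in FSClow, and stood at 0.705, 0, 0.269, 2.43 and 0 CPM in FSChi 1 to 5 and at 16.5, 6.18, 14.04, 8.88 and 6.78 CPM in EpCAM 1 to 5. Every EpCAM library was above every eGFP+ library, and FSClow and FSChi overlapped near 0. Its difference from EpCAM was -3.48 ± 0.78 (SE, edgeR adjusted p = 7.02e-04) in FSClow and -3.66 ± 0.96 (SE, edgeR adjusted p = 0.0068) in FSChi; without FSClow 6 the former was -4.66, and without FSChi 4 the latter was -5.02. Dnaic2, an intermediate chain gene, had 243 reads in EpCAM libraries and 3 in FSClow libraries, a ratio of 82.1 (95% counting interval 27.8 to 401, covering counting error only). It stood at 0.941, 0, 0.537, 0.747 and 2.48 CPM in FSChi and at 5.69, 4.51, 19.1, 5.14 and 9.04 CPM in EpCAM, again without overlap, and FSChi was -3.13 ± 0.71 (SE, edgeR adjusted p = 0.0021) from EpCAM and 2.83 ± 0.85 (SE, edgeR adjusted p = 0.017) from FSClow. Without FSChi 5 the former was -3.75, and without FSClow 6 the latter was 3.79. The call against FSClow was lost without FSChi 5 (edgeR adjusted p = 0.0696).

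Dnah9, another outer arm heavy chain gene, stood at 0 to 2.12 CPM (median 0.682) in FSClow, 7.05, 0, 2.96, 2.80 and 4.61 CPM in FSChi and 19.04, 14.02, 17.4, 21.4 and 8.89 CPM in EpCAM. EpCAM libraries were highest without overlap, and the FSChi libraries except FSChi 2 lay above all FSClow libraries. The differences were -4.13 ± 0.52 (SE, edgeR adjusted p = 4.96e-07) for FSClow against EpCAM, -2.13 ± 0.56 (SE, edgeR adjusted p = 0.0068) for FSChi against EpCAM and 2.01 ± 0.55 (SE, edgeR adjusted p = 0.0087) for FSChi against FSClow. Both FSChi calls were lost over the libraries matched by their own file (edgeR adjusted p = 0.206 and 0.0892). The call against EpCAM was also lost with RSEM expected counts (edgeR adjusted p = 0.0508). That against FSClow was also lost on the log2(normalized + 1) scale (limma adjusted p = 0.107). For Dnah11, FSClow ran from 4.78 to 18.9 CPM (median 7.55) and EpCAM from 10.7 to 28.7 CPM, and the log2 difference was -1.29 ± 0.35 (SE, edgeR adjusted p = 0.0036). It was not called on the log2(TPM + 0.1) scale, also without the nearly empty FSChi 3 file (limma adjusted p = 0.344). Dnaic1, an intermediate chain gene, was -1.89 ± 0.68 (SE, edgeR adjusted p = 0.027) in FSClow against EpCAM, and this call was lost without EpCAM 5 (adjusted p = 0.072).

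Dnah8, known as an outer arm heavy chain gene of sperm, had its highest levels in the FSChi gate. It stood at 0 to 2.10 CPM (median 0.717) in FSClow, at 7.05, 21.7, 0.806, 6.72 and 35.1 CPM in FSChi 1 to 5 and at 4.71, 4.75, 5.80, 2.65 and 1.36 CPM in EpCAM 1 to 5. The highest values belonged to FSChi 5 and FSChi 2, while FSChi 3 lay within the FSClow range. FSChi exceeded FSClow by 4.13 ± 0.70 (SE, edgeR adjusted p = 1.11e-04) on the log2 scale, or by 3.46 without FSChi 5. Against EpCAM the FSChi difference was 1.86 ± 0.74 (SE, edgeR adjusted p = 0.067), which did not pass the test but did without FSChi 3 (2.12, edgeR adjusted p = 0.0262). FSClow lay -2.28 ± 0.71 (SE, edgeR adjusted p = 0.011) from EpCAM. Dnah17, the seventh gene of this role, was not called in any comparison and ranged from 0 to 5.95 CPM over all libraries.

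Of 9 inner arm heavy chain genes only 3 passed the filter (Dnah2, Dnah10 and Dnah12). They were lower in both eGFP+ gates than in EpCAM, where their mean levels of 6.18, 7.14 and 5.99 CPM were the highest of the groups, so the limit on genes that passed through EpCAM bears on them too. None of them was called between FSChi and FSClow. Dnah3 had the highest count among genes that did not pass the filter, 241 reads, of which 208 were in EpCAM. It stood at 0 to 2.29 CPM (median 0.682) in FSClow, 0, 0, 0.403, 0.187 and 1.42 CPM in FSChi and 17.9, 2.85, 7.30, 9.19 and 1.05 CPM in EpCAM, so that EpCAM 5 lay within the range of the eGFP+ libraries. Dnah7a stood at 0 to 4.30 CPM (median 0.857) in FSClow, 2.12, 0.803, 1.48, 0.747 and 1.77 CPM in FSChi and 2.75, 3.09, 2.25, 2.65 and 1.81 CPM in EpCAM, with overlap of both gates with EpCAM, and reads of Dnah7a, Dnah7b and Dnah7c, which are close paralogs, may have been split between them. The summed level of the 15 dynein heavy and intermediate chain genes other than Dnah8 and Dnah14, tested or not, was 64.8 to 138 CPM in EpCAM, 12.3 to 37.8 CPM in FSClow and 6.43 to 32.96 CPM in FSChi. FSChi 2 held the lowest of these sums, and the other FSChi libraries lay within the FSClow range. The omitted Dnah8 and Dnah14 had higher mean levels in FSChi than in EpCAM (14.3 against 3.85 CPM and 4.22 against 0.402 CPM). With Dnah8, the 7 outer arm genes summed to 44.3 to 85.5 CPM in EpCAM and 11.3 to 20.9 CPM in FSClow. In FSChi their sum was 18.95 to 58.1 CPM, and FSChi 5 lay within the EpCAM range.

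Dnah14 (Entrez 240960, chromosome 1, 181576593 to 181814932), a dynein heavy chain gene whose arm is not assigned, was one of the 5 genes that were higher in both eGFP+ gates. It stood at 2.23 to 10.5 CPM (median 3.75) in FSClow, 6.35, 5.62, 2.96, 2.61 and 3.54 CPM in FSChi and 0.982, 0, 0.561, 0.467 and 0 CPM in EpCAM. No eGFP+ library overlapped EpCAM, although all levels were low. The log2 difference from EpCAM was 3.44 ± 0.66 (SE, edgeR adjusted p = 1.28e-04) in FSClow and 3.27 ± 0.69 (SE, edgeR adjusted p = 0.0012) in FSChi. On the log2(TPM + 0.1) scale without the nearly empty FSChi 3 file neither was called (limma adjusted p = 0.111 and 0.472), and 5.59% of its exon bases overlap other genes, among them Lbr on the opposite strand.

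Dynein assembly genes were divided. Dnaaf3 (Entrez 436022, chromosome 7, 4522933 to 4532488), an assembly factor gene, was higher in eGFP+ cells: FSClow ran from 29.6 to 88.4 CPM (median 56.2), FSChi libraries stood at 54.5, 87.6, 60.1, 42 and 33.7 CPM and EpCAM libraries at 5.69, 2.14, 3.37, 4.21 and 1.66 CPM. The lowest eGFP+ library was above the highest EpCAM library, and the eGFP+ gates overlapped, with FSChi 2 near the top. Dnaaf3 differed from EpCAM by 4.08 ± 0.34 (SE, edgeR adjusted p = 7.79e-10) in FSClow and 4.002 ± 0.35 (SE, edgeR adjusted p = 5.37e-09) in FSChi, and FSChi lay -0.08 ± 0.27 (SE, edgeR adjusted p = 0.86) from FSClow. Per length it rose from 1.02 ± 1.07 TPM (SD, n = 5) in EpCAM to 20.1 ± 5.41 TPM (SD, n = 9) in FSClow. The antisense gene Gm15873 and another gene overlap 16.5% of the Dnaaf3 exon bases, and no source says that reads were assigned by strand, so the reads of these genes cannot be told apart.

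The other assembly genes were lower or not called. Dnaaf1 stood at 0 to 2.11 CPM (median 0.403) in FSClow, 3.76, 0, 1.61, 4.48 and 0.709 CPM in FSChi and 5.50, 2.85, 5.80, 5.61 and 8.44 CPM in EpCAM, and differed by -3.03 ± 0.61 (SE, edgeR adjusted p = 2.27e-04) between FSClow and EpCAM. All EpCAM libraries lay above all FSClow libraries. Its difference of 1.74 ± 0.64 (SE, edgeR adjusted p = 0.049) between FSChi and FSClow passed the test narrowly and was lost without any of EpCAM 1 to 5, FSChi 1 and 4 and FSClow 2, 3 and 5 to 8, with values of 1.34 (without FSChi 4, adjusted p = 0.189) to 1.77. Dnaaf2, which was not called in any comparison, stood at 7.74 to 16.9 CPM (median 9.38) in FSClow, 22.3, 5.62, 12.9, 15.7 and 23.8 CPM in FSChi and 13.7, 15.2, 11.4, 7.32 and 15.2 CPM in EpCAM, with overlap throughout; it was called in FSChi against FSClow only without FSChi 2 (0.81, adjusted p = 0.0304). Dnaaf5 was -1.47 ± 0.51 (SE, edgeR adjusted p = 0.037) in FSChi against EpCAM, a call that rested on EpCAM 1 at 27.3 CPM, since without it the value was -0.87 (adjusted p = 0.214). It was also lost without FSChi 1 (adjusted p = 0.0567), FSChi 2 (0.0785) or FSChi 5 (0.067). FSClow against EpCAM was called for Dnaaf5 only without EpCAM 5 (-1.07, adjusted p = 0.0493) or FSClow 8 (-1.10, 0.0387) or with relative log expression scaling (-1.04, 0.0489). Cfap300 was lower in both gates by its called differences, and Cfap298 was abundant everywhere, with 24.6 to 45.05 CPM in FSClow, 33.7 to 65.4 CPM in FSChi and 38.5 to 74.4 CPM in EpCAM. Its difference of -0.51 ± 0.20 (SE, edgeR adjusted p = 0.038) between FSClow and EpCAM was lost without EpCAM 5 (-0.31, adjusted p = 0.208) and without any of EpCAM 2 and FSClow 3, 6, 8 and 9 (adjusted p = 0.0543 to 0.0673). FSChi was called above FSClow for Cfap298 without FSChi 3 (0.62, adjusted p = 0.0315) or FSClow 2 (0.56, 0.0444). Exons of Cfap298 and Dnaaf2 overlap other genes over 53.6% and 71.4% of their bases.

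**Figure D4:**
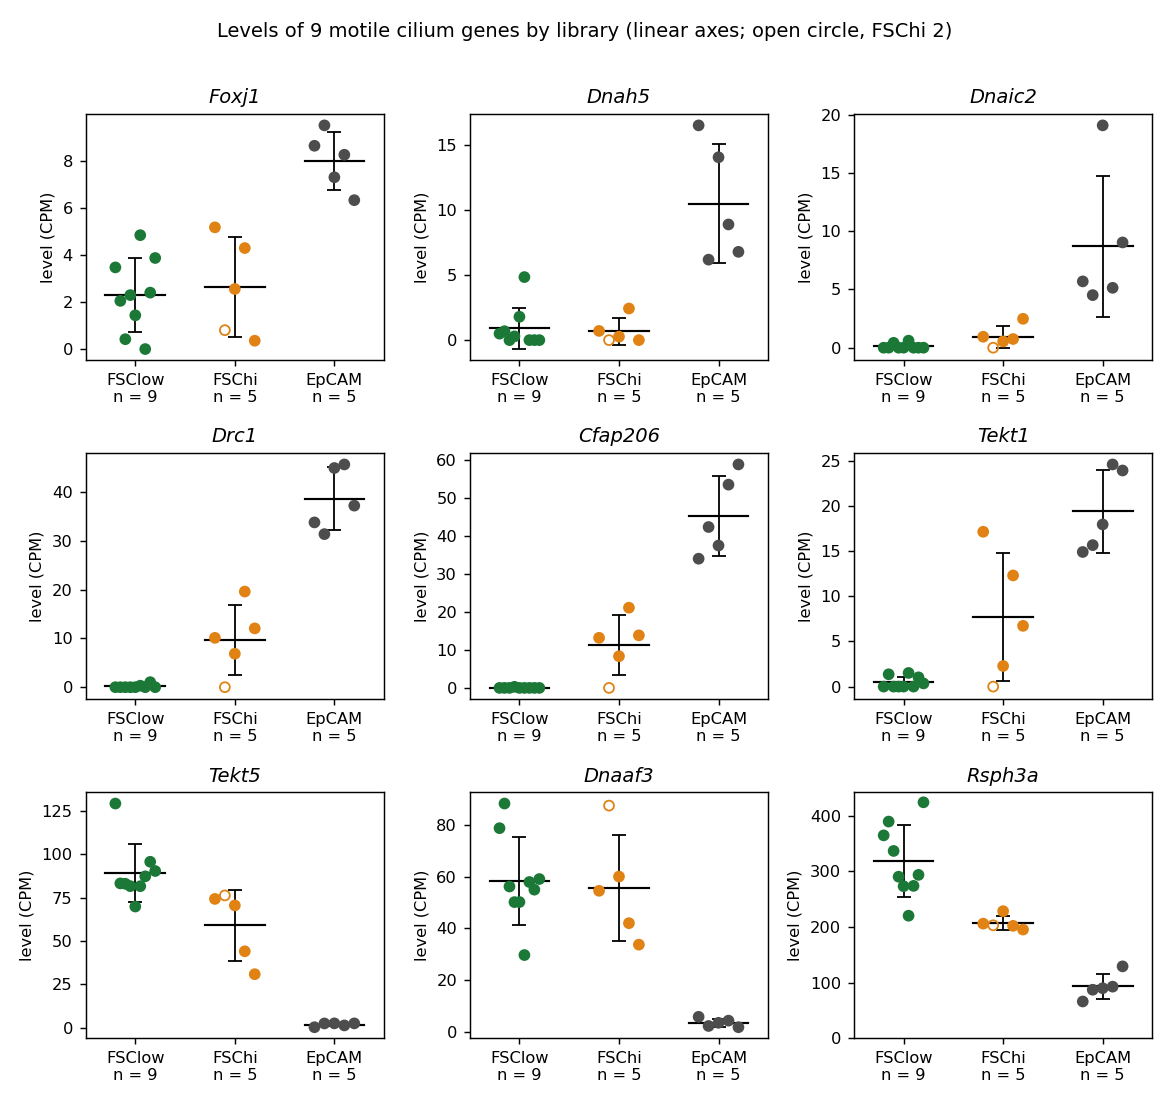
Levels in CPM of 9 motile cilium genes in every library on linear axes, with the mean and SD of each group (FSClow n = 9, FSChi n = 5, EpCAM n = 5) and FSChi 2 as an open circle. Foxj1, Dnah5 and Dnaic2 are low in both eGFP+ gates, Drc1, Cfap206 and Tekt1 are near 0 in FSClow and FSChi 2 and intermediate in the other FSChi libraries, except that Tekt1 in FSChi 1 lies within the EpCAM range, and Tekt5, Dnaaf3 and Rsph3a are higher in eGFP+ cells.

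Inner arm tether genes were lower in FSClow for 3 of the 4 tested and lower in FSChi for 2. Of all tested genes, 23.1% and 12.2% were lower there. Cfap43, called lower in both gates, ran the other way in TPM. Its means were 77.5 ± 52.6 TPM (SD) in FSClow, 34.1 ± 26.0 TPM in FSChi and 8.55 ± 4.05 TPM in EpCAM. The direction of Cfap43 thus depends on the quantification. Cfap44, which encodes a tether subunit, stood at 0 to 3.23 CPM (median 0.403) in FSClow, 15.8, 0, 8.06, 9.52 and 9.21 CPM in FSChi 1 to 5 and 39.1, 36.6, 42.1, 53.3 and 11.6 CPM in EpCAM 1 to 5. FSClow and EpCAM did not overlap, FSChi 2 had no read, the other FSChi libraries lay above all FSClow libraries, and FSChi 1 fell within the EpCAM range. The differences were -5.87 ± 0.65 (SE, edgeR adjusted p = 8.60e-08) for FSClow against EpCAM, -2.03 ± 0.62 (SE, edgeR adjusted p = 0.018) for FSChi against EpCAM and 3.84 ± 0.67 (SE, edgeR adjusted p = 1.56e-04) for FSChi against FSClow. Without FSClow 5, which held most of the FSClow reads, the FSClow values moved to -6.96 and 4.94, and without EpCAM 4 the call against FSChi was lost (adjusted p = 0.0502).

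Of 8 tested radial spoke genes, 5 were lower and 2 higher in FSClow than in EpCAM, and 2 were lower and 2 higher in FSChi. Of all tested genes, 23.1% were lower and 22.0% higher in FSClow, and 12.2% and 13.5% in FSChi. The radial spoke counts in FSChi are too few to be set apart from those shares. Cfap206 (Entrez 69329, chromosome 4, 34688574 to 34730263), which encodes a protein that docks a radial spoke, had 1284 reads in EpCAM libraries and 1 read in FSClow libraries, a ratio of 1302 (95% counting interval 233 to 51450). It was among the most abundant of the genes in EpCAM per length, at 40.2 ± 9.27 TPM (SD, n = 5). Its levels were 13.2, 0, 8.33, 21.1 and 13.8 CPM in FSChi 1 to 5 and 33.97, 42.3, 37.4, 53.4 and 58.8 CPM in EpCAM 1 to 5. FSChi 2 had no read, like the FSClow libraries other than FSClow 4, and the other FSChi libraries formed a group of their own below EpCAM. FSChi differed from EpCAM by -1.94 ± 0.45 (SE, edgeR adjusted p = 0.0023) and held 359 times the FSClow level (95% counting interval 63.9 to 14230.0). Rsph14 (Entrez 71236, chromosome 10, 74957477 to 75032642), a radial spoke gene, had 0 reads in FSClow and 265 in EpCAM, so it was at least 89.5-fold lower in FSClow (against a floor of 3 counts over the group). In FSChi it stood at 13.4, 0, 2.42, 8.40 and 2.13 CPM, against 9.23, 12.4, 10.5, 8.41 and 8.44 CPM in EpCAM. FSChi 1 was above all EpCAM libraries, and the other FSChi libraries were below them. FSChi was not called against EpCAM (-0.82 ± 0.66, edgeR adjusted p = 0.40) and was at least 55.8-fold higher than FSClow.

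Rsph3a (Entrez 66832, chromosome 17, 7945614 to 7979556) and Rsph3b (Entrez 100037282, chromosome 17, 6904716 to 6948356), paralogs that encode a radial spoke stalk protein, were higher in both eGFP+ gates. Rsph3a stood at 220.5 to 424 CPM (median 294) in FSClow, 206, 203, 229, 202 and 196 CPM in FSChi and 66.4, 87.5, 90.2, 93.02 and 129.5 CPM in EpCAM. Neither gate overlapped EpCAM, and only FSClow's lowest library fell within the FSChi range. Rsph3b had nearly the same counts, at 317 ± 67.5 CPM (SD, n = 9) in FSClow, 207 ± 11.9 CPM (SD, n = 5) in FSChi and 94.5 ± 21.7 CPM (SD, n = 5) in EpCAM, so the reads may be shared and the genes are 1 uncertain measurement. Rsph3a differed from EpCAM by 1.77 ± 0.19 (SE, edgeR adjusted p = 3.69e-08) in FSClow and 1.15 ± 0.20 (SE, edgeR adjusted p = 1.32e-04) in FSChi, and FSChi differed from FSClow by -0.62 ± 0.18 (SE, edgeR adjusted p = 0.012). For Rsph3b these were 1.75 ± 0.19, 1.13 ± 0.20 and -0.62 ± 0.18. The direction of Rsph3a in FSChi against EpCAM turned to -0.55 on the log2(TPM + 0.1) scale with the nearly empty FSChi 3 file (limma adjusted p = 0.79).

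Rsph9 and Rsph1, which encode spoke head proteins, were abundant in all groups. Rsph9 stood at 15.4 to 48.1 CPM (median 30.2) in FSClow, 93.3, 38.6, 42.1, 55.6 and 45.7 CPM in FSChi and 40.5, 63.7, 47.9, 48.1 and 47.1 CPM in EpCAM, and FSClow overlapped both. The differences were -0.62 ± 0.24 (SE, edgeR adjusted p = 0.038) for FSClow against EpCAM, lost without any of 5 libraries (EpCAM 2, adjusted p = 0.117, EpCAM 5, 0.052, FSClow 3, 0.056, FSClow 6, 0.0606, and FSClow 8, 0.051), and 0.78 ± 0.24 (SE, edgeR adjusted p = 0.019) for FSChi against FSClow, lost without FSChi 1 (adjusted p = 0.119). Rsph1 ran from 15.9 to 35.7 CPM (median 21.9) in FSClow, 23.8 to 64.2 CPM in FSChi and 28.7 to 46.3 CPM in EpCAM. It was not called in any comparison, with an edgeR adjusted p of 0.069 for FSClow against EpCAM (-0.57 ± 0.25) that fell under 0.05 with 10 of the other settings and without any of EpCAM 1, FSChi 1, 3, 4 and 5 and FSClow 1, 2 and 5 (values of -0.73 to -0.65). FSChi against FSClow was called for Rsph1 without FSChi 3 (0.75, adjusted p = 0.045). Rsph4a, another spoke head gene, was called lower in both gates.

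All 6 nexin link and ruler genes were lower in FSClow, and 5 were lower in FSChi, where 23.1% and 12.2% of all tested genes were. Drc1 (Entrez 381738, chromosome 5, 30281335 to 30366695), a core subunit of the nexin link, stood at 0 to 1.03 CPM (median 0) in FSClow, 10.1, 0, 6.85, 19.6 and 12.1 CPM in FSChi 1 to 5 and 33.8, 31.4, 44.9, 45.6 and 37.2 CPM in EpCAM 1 to 5. Most FSClow libraries and FSChi 2 had no read, the other FSChi libraries lay between, and no eGFP+ library reached the EpCAM range. The differences were -7.21 ± 0.62 (SE, edgeR adjusted p = 1.48e-09), -1.92 ± 0.53 (SE, edgeR adjusted p = 0.0091) and 5.28 ± 0.64 (SE, edgeR adjusted p = 1.90e-06) for FSClow against EpCAM, FSChi against EpCAM and FSChi against FSClow. Without FSClow 8 the first and last were -8.98 and 7.06. Drc7, a further nexin link gene, had 343 reads in EpCAM libraries and 2 in FSClow libraries, a ratio of 174 (95% counting interval 47.8 to 1441). It stood at 3.76, 0, 2.82, 6.53 and 3.19 CPM in FSChi and 9.23, 12.8, 13.5, 12 and 14.01 CPM in EpCAM without overlap (-1.82 ± 0.52 (SE, edgeR adjusted p = 0.012)).

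The ruler genes were unequal in FSClow. Ccdc40 stood at 0 to 3.97 CPM (median 0.341) in FSClow, 6.35, 0, 4.17, 10.3 and 7.44 CPM in FSChi and 30.8, 27.1, 36.3, 55.3 and 14.3 CPM in EpCAM. Ccdc39, its partner in the ruler, stood at 4.09 to 10.5 CPM (median 9.15) in FSClow, 18.6, 1.61, 9.68, 16.1 and 7.44 CPM in FSChi and 37.9, 37.1, 35.2, 37.5 and 30.4 CPM in EpCAM. EpCAM libraries were highest without overlap for both, but Ccdc39 was present in every FSClow library while Ccdc40 was near 0 in most of them. Ccdc40 differed by -4.88 ± 0.66 (SE, edgeR adjusted p = 1.66e-06) and Ccdc39 by -2.03 ± 0.30 (SE, edgeR adjusted p = 4.41e-06) between FSClow and EpCAM. Between FSChi and EpCAM they differed by -2.45 ± 0.69 (SE, edgeR adjusted p = 0.011) and -1.67 ± 0.35 (SE, edgeR adjusted p = 0.0011). Ccdc40 was also higher in FSChi than in FSClow (2.43 ± 0.69 (SE, edgeR adjusted p = 0.012)), or by 3.07 without FSClow 5 (and -5.53 from EpCAM), while Ccdc39 was not called there (0.36 ± 0.31, adjusted p = 0.44). That Ccdc40 call was lost with the replicate block (edgeR adjusted p = 0.13) and over the libraries matched by their own file (0.286). Exons of Ttc14 on the opposite strand overlap 16.9% of the Ccdc39 exon bases. Whether the 2 genes differ in their fall was not tested.

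Drc3, a nexin link gene, was present in all groups, at 6.51 to 22.9 CPM (median 14.4) in FSClow, 35.5, 8.84, 16.4, 26.1 and 28.7 CPM in FSChi and 30.4, 21.9, 40.2, 44.2 and 26.96 CPM in EpCAM. The FSClow and EpCAM ranges overlapped only slightly, and the difference was -1.12 ± 0.29 (SE, edgeR adjusted p = 0.0027). FSChi was called above FSClow only without FSChi 2 (0.82, adjusted p = 0.0371). Ccdc153, which encodes a small nexin link subunit, stood at 0 to 2.42 CPM (median 0) in FSClow, 4.47, 4.02, 0.134, 0.560 and 0 CPM in FSChi and 15.9, 5.70, 19.5, 8.73 and 4.67 CPM in EpCAM. EpCAM libraries were highest, and FSChi 1 and 2 held nearly all FSChi reads. It differed from EpCAM by -4.04 ± 0.79 (SE, edgeR adjusted p = 1.73e-04) in FSClow, or -4.65 without FSClow 6. In FSChi it differed by -2.72 ± 0.91 (SE, edgeR adjusted p = 0.03), which was -3.88 without FSChi 1. That call was lost without any of EpCAM 1 and 3 and FSChi 3, 4 and 5 (adjusted p = 0.0642 to 0.0822).

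Of 5 tested central pair genes, 4 were lower in FSClow and 3 in FSChi, where 23.1% and 12.2% of all tested genes were. Cfap74, called lower in both gates, ran the other way in TPM. Its means were 20.9 ± 7.72 TPM (SD) in FSClow, 14.7 ± 8.69 TPM in FSChi and 8.87 ± 2.74 TPM in EpCAM. The direction of Cfap74 thus depends on the quantification. Cfap65 stood at 0 to 2.12 CPM (median 0) in FSClow, 12.2, 0, 4.43, 6.35 and 3.90 CPM in FSChi and 29.1, 28.04, 16.5, 28.8 and 11.4 CPM in EpCAM. Most FSClow libraries and FSChi 2 had no read, and only FSChi 1 reached the EpCAM range. Cfap65 differed by -6.16 ± 0.72 (SE, edgeR adjusted p = 1.69e-07) in FSClow against EpCAM and by 4.17 ± 0.75 (SE, edgeR adjusted p = 2.08e-04) in FSChi against FSClow, or by -8.32 and 6.32 without FSClow 6. Its difference of -1.99 ± 0.66 (SE, edgeR adjusted p = 0.028) between FSChi and EpCAM was lost without any of EpCAM 1, 2 and 4 and FSChi 3 and 5 (adjusted p = 0.0573 to 0.0619). Cfap69, which encodes a central pair protein, kept a higher level in FSClow, at 4.44 to 22.9 CPM (median 15.7), against 15.5, 2.41, 15.1, 22.8 and 15.6 CPM in FSChi and 51.2, 39.7, 66.6, 87.6 and 42.5 CPM in EpCAM. No eGFP+ library reached the EpCAM range, and the gates overlapped each other. The differences from EpCAM were -1.92 ± 0.33 (SE, edgeR adjusted p = 3.97e-05) in FSClow and -1.96 ± 0.40 (SE, edgeR adjusted p = 8.35e-04) in FSChi; the former was not called on the log2(TPM + 0.1) scale without the nearly empty FSChi 3 file (limma adjusted p = 0.207).

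Spag6l, a central pair gene, stood at 0 to 12.2 CPM (median 1.02) in FSClow, 1.18, 11.2, 7.93, 7.47 and 7.09 CPM in FSChi and 10.01, 8.08, 17.6, 10.4 and 5.27 CPM in EpCAM. FSClow 5 was far above the other FSClow libraries, and FSChi 2 was the highest FSChi library here. FSClow differed from EpCAM by -2.16 ± 0.69 (SE, edgeR adjusted p = 0.012), or -3.36 without FSClow 5. FSChi was not called against FSClow (1.57 ± 0.71, adjusted p = 0.11), but was with RSEM expected counts (2.06, adjusted p = 0.0462) and without FSClow 5 (2.72, adjusted p = 0.00168).

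Among tektins and proteins of the doublet lumen, 6 of 7 tested genes were lower in FSClow and 1, Tekt5, was higher. Of all tested genes, 23.1% were lower and 22.0% higher in that comparison. Tekt5 (Entrez 70426, chromosome 16, 10357952 to 10395455), a tektin gene, stood at 69.9 to 129 CPM (median 83.3) in FSClow, 74.3, 76.3, 70.5, 44.05 and 30.8 CPM in FSChi 1 to 5 and 0.196, 2.38, 2.43, 1.25 and 2.41 CPM in EpCAM 1 to 5. Every eGFP+ library lay more than 10-fold above every EpCAM library, with FSClow 1 the highest and FSChi 4 and 5 below all FSClow libraries. It differed from EpCAM by 5.66 ± 0.37 (SE, edgeR adjusted p = 1.53e-11) in FSClow and 5.07 ± 0.37 (SE, edgeR adjusted p = 2.77e-10) in FSChi, the largest rises among the tested motile cilium genes. FSChi against FSClow was not called (-0.59 ± 0.26, adjusted p = 0.11). Per length it stood at 98.8 ± 18.5 TPM (SD, n = 9) in FSClow and 1.88 ± 1.10 TPM (SD, n = 5) in EpCAM.

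Tekt1 (Entrez 21689, chromosome 11, 72344717 to 72362442), the ciliated cell tektin among the markers, moved the other way, with 0 to 1.51 CPM (median 0) in FSClow, 17.2, 0, 2.28, 12.3 and 6.73 CPM in FSChi and 14.9, 15.7, 17.97, 24.6 and 23.9 CPM in EpCAM. FSClow lay wholly below EpCAM, FSChi 1 fell within the EpCAM range and FSChi 2 had no read. Its differences were -5.10 ± 0.67 (SE, edgeR adjusted p = 9.08e-07) for FSClow against EpCAM, -1.28 ± 0.64 (SE, edgeR adjusted p = 0.15) for FSChi against EpCAM and 3.82 ± 0.68 (SE, edgeR adjusted p = 1.82e-04) for FSChi against FSClow. Tekt2 stood at 0 to 3.17 CPM (median 0.287) in FSClow, 0.470, 1.61, 0.672, 1.68 and 0.354 CPM in FSChi and 3.53, 7.13, 3.74, 3.12 and 3.62 CPM in EpCAM, and was -2.43 ± 0.68 (SE, edgeR adjusted p = 0.0048) in FSClow against EpCAM. Only FSClow 9 reached the EpCAM range, and without it the value was -3.12. The FSChi call for Tekt2 (-2.17 ± 0.80 (SE, edgeR adjusted p = 0.048)) was lost without any of EpCAM 1 to 5, FSChi 1, 2, 3 and 5 and FSClow 6, with values from -2.31 to -1.90 (without EpCAM 2, adjusted p = 0.118), and 20.8% of its exon bases overlap Gm12945 on the opposite strand. Tekt4, too low to test, had 126 reads in EpCAM libraries and 2 in FSClow libraries, a ratio of 63.9 (95% counting interval 17.3 to 533), and stood at 2.82, 0, 1.61, 0.933 and 1.06 CPM in FSChi.

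Cfap20, which encodes a protein of the doublet's inner junction, was abundant everywhere and graded across the groups. It stood at 53.5 to 80.3 CPM (median 72.6) in FSClow, 126, 115, 83.3, 113 and 88.2 CPM in FSChi and 133, 125, 123, 149 and 184 CPM in EpCAM. FSClow lay below both other groups without overlap, and FSChi 1 alone reached the EpCAM range. The differences were -1.09 ± 0.16 (SE, edgeR adjusted p = 3.86e-06), -0.45 ± 0.18 (SE, edgeR adjusted p = 0.076) and 0.64 ± 0.16 (SE, edgeR adjusted p = 0.0047) for FSClow against EpCAM, FSChi against EpCAM and FSChi against FSClow, and the second was called without FSChi 1 (-0.58, adjusted p = 0.0317), FSClow 2 (0.0498) or FSClow 7 (0.0461). Relative log expression scaling also called it (-0.56, adjusted p = 0.0284). Cfap36, named with the cilium and flagellum genes, stood at 42.4 to 70.4 CPM (median 51.7) in FSClow, 113, 85.98, 80.8, 76.3 and 79.7 CPM in FSChi and 55.4, 78.4, 55.8, 65.9 and 70.95 CPM in EpCAM. FSChi lay wholly above FSClow (0.72 ± 0.16 (SE, edgeR adjusted p = 0.0016)), and FSChi 1 was the highest library. FSClow against EpCAM was not called (-0.31 ± 0.16, adjusted p = 0.13), but was with relative log expression scaling (-0.49, adjusted p = 0.0165). It was also called without EpCAM 1 (0.0428), EpCAM 3 (0.0446), FSChi 1 (0.0397) or FSClow 7 (0.0389).

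Tppp3, which encodes a tubulin polymerisation promoting protein, had the highest level of all these genes per length in EpCAM, 194 ± 97.7 TPM (SD, n = 5), with Cfap20 at 169.8 ± 31.5 TPM next and within that spread. Tppp3 stood at 0.403 to 33.98 CPM (median 19.5) in FSClow, 232, 202, 42.7, 77.1 and 99.9 CPM in FSChi and 156, 104, 59.3, 51.1 and 177 CPM in EpCAM. FSClow lay wholly below both other groups, which overlapped, and FSChi 2 was high here. The differences were -2.72 ± 0.57 (SE, edgeR adjusted p = 5.44e-04) for FSClow against EpCAM and 2.97 ± 0.57 (SE, edgeR adjusted p = 7.04e-04) for FSChi against FSClow, and FSChi against EpCAM was not called (0.25 ± 0.64, adjusted p = 0.82). Pifo, which encodes the ciliary protein pitchfork, stood at 0.514 to 3.23 CPM (median 1.76) in FSClow, 35.3, 0.803, 6.45, 15.5 and 6.38 CPM in FSChi and 17.1, 27.1, 21.1, 26.02 and 12.3 CPM in EpCAM. FSClow was wholly below EpCAM (-3.58 ± 0.52 (SE, edgeR adjusted p = 3.42e-06)), and FSChi reached from 1 read in FSChi 2 to above EpCAM in FSChi 1. FSChi exceeded FSClow by 2.94 ± 0.52 (SE, edgeR adjusted p = 1.69e-04), or by 2.18 without FSChi 1. Against EpCAM, Pifo was called lower in FSChi only without FSChi 1 (-1.48, adjusted p = 0.0463).

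Ak7, an adenylate kinase gene of the axoneme, stood at 0 to 3.02 CPM (median 0) in FSClow, 0.705, 0, 1.48, 0.560 and 2.83 CPM in FSChi and 3.53, 1.66, 9.36, 3.74 and 2.26 CPM in EpCAM, and differed by -3.29 ± 0.85 (SE, edgeR adjusted p = 0.0027) between FSClow and EpCAM; all its FSClow reads came from FSClow 2 and FSClow 6. Sntn, which encodes sentan of the motile cilium tip, had 148 reads and was not tested. It stood at 8.94 CPM in FSChi 1 and 0 in the other FSChi libraries, at 0 in all FSClow libraries but FSClow 6, and at 8.05, 1.19, 4.87, 3.43 and 1.81 CPM in EpCAM. The other genes that did not pass the filter had from 0 reads (Cfap97d1) to 178 reads (Dnah6) over all libraries and never exceeded 10.6 CPM.

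The genes that were near 0 in both eGFP+ gates and those that were intermediate in FSChi can be set side by side. Without FSChi 2, FSChi libraries averaged 8.12% of the EpCAM mean for Dnah5, 7.11% for Dnah12, 13.5% for Dnaic2 and 16.2% for Dnah10. The corresponding shares were 31.5% for Drc1, 31.2% for Cfap206, 33.1% for Drc7, 29.1% for Cfap44, 49.5% for Tekt1 and 67.3% for Rsph14. These genes were picked after their values were seen, and dynein chain genes were not all at the low end: the shares were 24.3% for Dnah2, 27.0% for Dnah9, 31.6% for Dnah11 and 56.3% for Dnaic1. They were 60.9% for Dnah7a, 66.0% for Dnah7b, 160% for Dnah17 and 322% for Dnah8. Genes other than dynein chains were also low, with 11.8% for Ccdc153, 18.8% for Tekt2, 18.9% for Cfap43, 21.5% for Ccdc40 and 22.9% for Rsph4a. The low and intermediate genes thus do not split by dynein chain. A difference between these classes was not tested. Markers of other epithelial and neuronal cells also differed between the gates. In FSChi against FSClow, 4 of 8 sustentacular, 5 of 6 basal, 6 of 8 tested secretory and gland and 4 of 6 ionocyte markers were higher and 0 were lower. Over all tested genes, 15.5% were higher and 9.30% lower in that comparison. All 10 olfactory sensory neuron markers were higher there too, and their summed level was 65.2 to 278 CPM in FSClow, 3928, 240.2, 1538, 3302 and 2026 CPM in FSChi 1 to 5 and 3289 to 6030.0 CPM in EpCAM. Gng13, a G protein subunit gene, made up 218 CPM of the sum in FSChi 2, and it was the one of the 10 that was called higher in FSChi than in EpCAM (edgeR adjusted p = 2.48e-04). Without Gng13 the sum was 22.2 to 116 CPM in FSClow, 3469, 22.5, 1399, 3128 and 1748 CPM in FSChi 1 to 5 and 3245 to 5974 CPM in EpCAM. In FSChi 2 the neuronal genes Cnga2 and Stoml3 had no read. The summed level of 8 sustentacular markers was 303 to 876 CPM in FSClow, 601 to 5956 CPM in FSChi and 6712 to 12870.0 CPM in EpCAM, that of 6 basal cell markers 27.2 to 127, 43.8 to 1734 and 1358 to 4599 CPM, and that of 9 secretory and gland markers 18.1 to 372, 415 to 12150.0 and 5755 to 21070.0 CPM. Sums of 6 ionocyte markers were 676 to 1112, 482 to 1483 and 1646 to 4104 CPM, and of 6 leukocyte markers 6.30 to 32.97, 2.80 to 19.8 and 0.196 to 2.85 CPM. The libraries were not ordered alike in each list, as the ionocyte sum was lowest in FSChi 1 and the basal sum in FSChi 3 among the FSChi libraries. The ionocyte sum does not follow most of its markers. In FSClow against EpCAM, 5 of the 6 were lower and 1 was higher, with a median log2 fold change of -5.99. The mean ionocyte sum in FSClow was still 37.0% of that in EpCAM. The tested leukocyte marker, Ptprc, which encodes the CD45 that the sort gated out, stood at 4.78 to 32.4 CPM in FSClow and 2.61 to 18.01 CPM in FSChi, had no read in EpCAM and was called higher in both gates (edgeR adjusted p = 7.60e-07 and 1.82e-05). The part of these cells in the levels of the motile cilium genes was not tested.

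**Figure D5:**
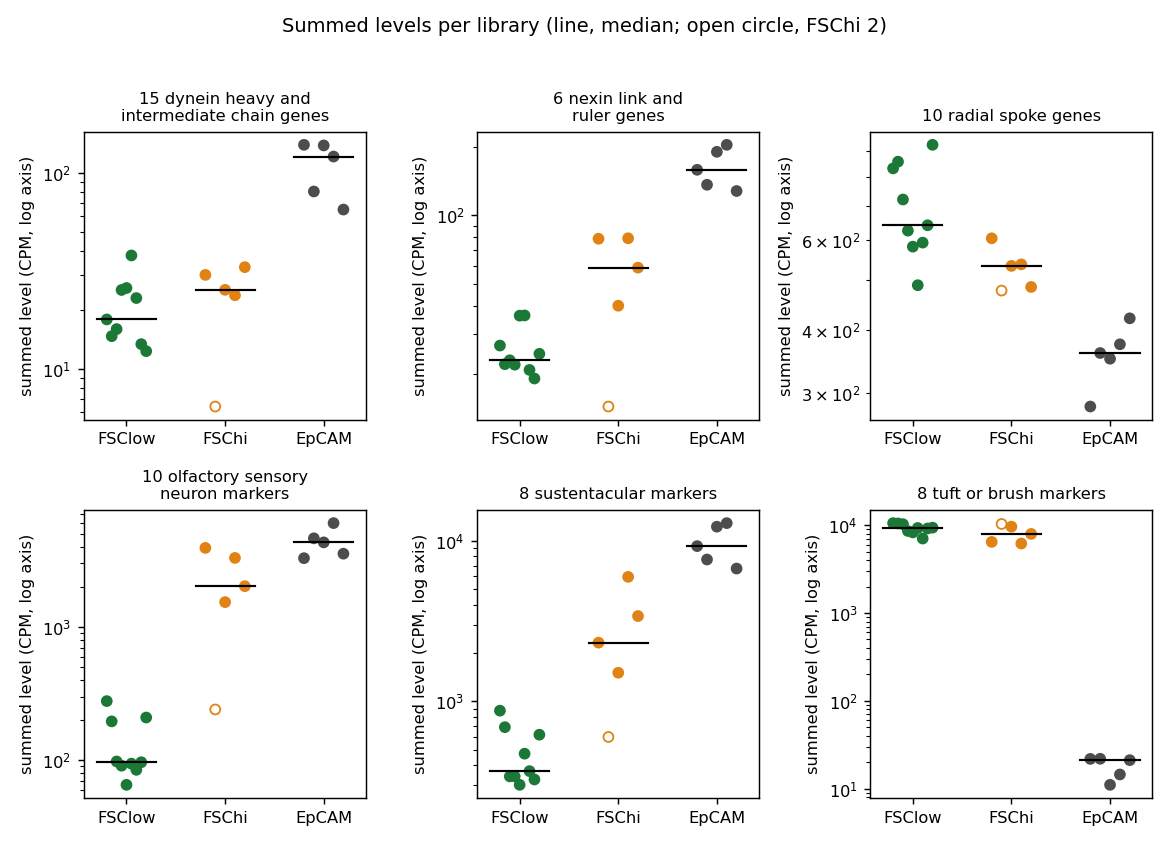
Summed levels per library on log axes for 3 groups of motile cilium genes (top) and 3 lists of cell type markers (bottom); lines are medians and the open circle is FSChi 2. The 15 dynein chain genes, which leave out Dnah8 and Dnah14, are low in both eGFP+ gates. Nexin link and ruler genes are intermediate in FSChi apart from FSChi 2. Radial spoke genes, most of whose sum is Rsph3a and Rsph3b, are highest in FSClow. The means of the olfactory neuron and sustentacular sums in FSChi lie between those of FSClow and EpCAM. FSChi 2 is within the FSClow range for both, and FSChi 1 and 4 are within the EpCAM range for the olfactory sum.

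Other genes of the same pathway, none of them among the 79, were counted from lists chosen by function. Of 40 further axoneme and docking genes 31 were tested. Against EpCAM, 21 were lower and 1 higher in FSClow, and 5 lower and 2 higher in FSChi. In FSChi against FSClow, 16 were higher and 0 lower. The median log2 fold changes were -2.33, -0.82 and 1.60, in that order. Over all tested genes, 23.1% were lower and 22.0% higher, 12.2% and 13.5%, and 9.30% and 15.5% in these comparisons. As above, a listed gene that passed the filter only through EpCAM had to be lower in the eGFP+ cells. Ccdc151, an outer arm docking gene, had no read in FSClow and stood at 10.8, 0, 2.42, 15.5 and 7.44 CPM in FSChi and 15.7, 20.4, 20.4, 19.9 and 14.5 CPM in EpCAM. Like Drc1 and Cfap206 it had no read in FSChi 2. Ttc25, another outer arm docking gene, stood at 8.92 to 33.8 CPM (median 21.8) in FSClow, 102, 447, 112, 105 and 229 CPM in FSChi and 8.64, 8.32, 8.98, 15.1 and 6.93 CPM in EpCAM. All FSChi libraries were above all others, with FSChi 2 the highest, and the differences were 4.36 ± 0.41 (SE, edgeR adjusted p = 1.96e-08) from EpCAM and 3.14 ± 0.31 (SE, edgeR adjusted p = 1.33e-07) from FSClow.

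Of 10 tested dynein assembly genes outside the Dnaaf prefix, 1 was higher and 1 lower in FSClow, and 2 were higher and 0 lower in FSChi, each against EpCAM; in FSChi against FSClow 1 was higher and 0 lower. Their median log2 fold changes were -0.14, 0.09 and 0.24. Over all tested genes, 22.0% were higher and 23.1% lower in FSClow, and 13.5% and 12.2% in FSChi, each against EpCAM. In FSChi against FSClow the shares were 15.5% and 9.30%. The few assembly genes were not tested against these shares. Lrrc6, which encodes an assembly factor, was higher in both gates like Dnaaf3, with 8.77 to 35.5 CPM (median 24.02) in FSClow, 31.3, 42.6, 16.7, 19.97 and 27.6 CPM in FSChi and 7.26, 9.51, 7.30, 10.4 and 7.83 CPM in EpCAM (log2 differences of 1.47 ± 0.31 (SE, edgeR adjusted p = 3.50e-04) and 1.68 ± 0.34 (SE, edgeR adjusted p = 6.58e-04)). Zmynd10, whose product works with that of Lrrc6, was near 0 in FSClow at 0 to 1.51 CPM (median 0) and stood at 7.29, 0, 3.49, 14.6 and 3.19 CPM in FSChi and 17.3, 12.1, 13.5, 18.9 and 13.7 CPM in EpCAM; FSClow lay -5.74 ± 0.74 (SE, edgeR adjusted p = 6.74e-07) from EpCAM. Of 15 tested multiciliogenesis and centriole genes, 5 were higher and 6 lower in FSClow and 1 higher and 3 lower in FSChi, each against EpCAM. In FSChi against FSClow, 0 were higher and 1 lower. The shares of all tested genes given for the assembly genes apply here too. The transcription factor gene Myb was higher in eGFP+ cells, at 47.6 to 164 CPM (median 94.6) in FSClow, 19.8, 40.2, 36.3, 17.9 and 24.1 CPM in FSChi and 4.12, 2.38, 3.93, 3.90 and 3.16 CPM in EpCAM, and differed by 4.73 ± 0.35 (SE, edgeR adjusted p = 1.21e-10) between FSClow and EpCAM. Rfx3, which encodes a factor that binds the X-box, was lower in both gates, by -1.51 ± 0.26 (SE, edgeR adjusted p = 3.22e-05) in FSClow and -1.05 ± 0.30 (SE, edgeR adjusted p = 0.012) in FSChi.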

How the data were processed

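RNA sequencing libraries of 3 sorted populations were analysed from deposited files. STAR 2.4.2a, RSEM 1.2.21, Picard 1.1073, DESeq2 and featureCounts are named, with the build mm10 but without roles, per the submitters' processing notes. Raw counts for 27179 Entrez identifiers and a normalized table of 26221 rows were deposited. The deposited normalized values were handled as a signal: multiplied by a size factor per library, 100% of them came out as whole reads within 0.01. Files of single libraries give expected counts from RSEM and TPM, which corrects for gene length, per the file headers. Symbols came from RefSeq; 1322 identifiers without a symbol held 0.982% of counts and stayed in the tests.

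Counts were tested with edgeR 4.0.16 (filterByExpr by group, TMM, robust quasi-likelihood F test on 13340 genes, all 19 libraries in 1 fit, group as the only term) with Benjamini-Hochberg adjustment over all genes tested. SE were derived from the F statistic. CPM use TMM-scaled totals. Intervals (95%) and floors (3 counts) cover counting error only. TPM means leave out the nearly empty FSChi 3 file, so FSChi TPM rest on 4 files. Exon overlaps were taken from GENCODE vM21 and coordinates from RefSeq (GRCm38.p6). Alternatives covered scaling, filters, DESeq2 1.42.0, limma 3.58.1 on log2(normalized value + 1), log2(TPM + 1) and log2(TPM + 0.1), expected counts rounded to whole numbers, library subsets and a replicate block; 4 were added after seeing the data. The model was tested on simulated counts.

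The genes and lists were chosen with earlier results of these data known. Named with values are the 10 genes listed singly, Dnah5 and Tekt1, the 3 genes per prefix with the highest TPM in EpCAM, genes called higher than EpCAM, the 5 smallest p per direction and comparison, and the highest count among genes that failed the filter. Other genes appear by name, range and count, apart from some mean levels and shares of EpCAM. Those printed for their promoter sequence alone, and Cfap43 and Cfap74 where TPM is given, were chosen after their values were seen. From each other list at most 3 genes are named.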

Additional observations from a re-analysis of the deposited data

Results flagged for a closer look

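Within the groups of 5 to 9 libraries, 125 sets of levels of the 42 named genes were searched by Dixon's criterion. It looks for a single library far from the rest, and 22 were found. Chance gives about 1 in 20 sets if the values are normally distributed. That rate does not hold for sets near 0, as any read in a set that is otherwise 0 is flagged. In FSClow, where most of these genes were near 0, FSClow 6 stood out for Ak7 (3.03 CPM), Ccdc153 (2.42 CPM), Cfap65 (2.12 CPM), Dnah5 (4.84 CPM) and Sntn (1.21 CPM). FSClow 5 stood out for Cfap44 (3.23 CPM), Dnah7a (4.30 CPM) and Spag6l (12.2 CPM), and FSClow 8 for Dnaaf5 (13.0 CPM) and Drc1 (1.03 CPM). Single libraries also stood out for Ccdc39 (FSClow 2, the lowest at 4.10 CPM), Cfap206 (FSClow 4, 0.287 CPM, a single read), Tekt4 (FSClow 1, 0.992 CPM) and Tekt5 (FSClow 1, 129 CPM).

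In FSChi, FSChi 1 was far above the others for Cfap36 (113 CPM), Rsph1 (64.2 CPM) and Sntn (8.94 CPM), and FSChi 5 for Dnah3 (1.42 CPM). In EpCAM, the high libraries were EpCAM 3 for Ak7 (9.36 CPM), EpCAM 5 for Cfap298 (74.4 CPM), EpCAM 1 for Dnaaf5 (27.3 CPM) and EpCAM 2 for Tekt2 (7.13 CPM).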

How the results depend on the processing

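Single-gene values under the alternatives were followed for the named genes only. Of these values, 3577 kept their side of the threshold, 192 lost a call, 66 gained one and 7 reversed. A reversal was counted only where at least 1 of the 2 fits made a call. Values that changed sign without a call in either fit are among the 3577. With 1 library left out, counts of genes called ran from 5 to 5 higher and 40 to 49 lower for FSClow against EpCAM, 5 to 6 and 17 to 27 for FSChi against EpCAM, and 18 to 28 and 2 to 2 for FSChi against FSClow. Counts that moved by more than 1.5 times from 5 higher in FSClow than EpCAM were 2 with limma on log2(TPM + 0.1). From 5 higher in FSChi than EpCAM they were 0 with log2(TPM + 0.1) (where limma called none of them) and 2 with log2(TPM + 1). From 23 lower they were 14 with RSEM expected counts, 42 with log2(normalized + 1) and 7 with only the libraries matched best by their own file. For FSChi against FSClow, 21 higher became 2 with log2(TPM + 0.1), 4 with log2(TPM + 1) and 7 with only the 2 groups compared, where 26 of the genes were tested. The 2 lower became 1 with RSEM expected counts, with or without the FSChi 3 file, and 0 with log2(TPM + 0.1), log2(TPM + 1) or the matched libraries only. Among the named genes, these 7 reversals occurred on the TPM scales with the nearly empty FSChi 3 file. With pseudocounts 0.1 and 1, Cfap20 moved to -1.39 and -0.73, Cfap36 to -1.32 and -0.67 and Rsph9 to -1.33 and -0.68 in FSChi against FSClow. With 0.1 only, Rsph3a moved to -0.55 in FSChi against EpCAM. Without that file (added after seeing the data), log2(TPM + 0.1) called 6 higher and 53 lower, 4 and 16, and 15 and 2. Other causes were not tested. Cfap43 and Cfap74, outside the 42 named genes, had higher mean TPM in FSClow and FSChi than in EpCAM, opposite to their calls from counts. Those means leave out the FSChi 3 file. With RSEM expected counts, 7 genes were higher and 34 lower in FSClow than in EpCAM. Whole reads recovered from the normalized table gave 5 and 45, 5 and 24, and 21 and 2 (over all 13182 genes: 2573 and 3282, 1622 and 1750, 2132 and 1133). Relative log expression scaling moved the median of all genes from 0.05 to -0.14 in FSClow and from -0.02 to -0.14 in FSChi, each against EpCAM. Low depth in FSChi 2 limits what its 24 genes without a read can show.

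Replicate numbers are shared between groups, and the labels do not say whether they pair samples. Deviations of same-numbered libraries were at most weakly correlated (15 pairs, r from -0.24 to 0.388), and 4 of 15 libraries correlated best with their own number. Weak correlation cannot exclude a shared source, so pairing remains unknown. With the replicate block, 5 genes were higher and 42 lower in FSClow than EpCAM, 5 and 23 in FSChi than EpCAM, and 14 and 0 in FSChi than FSClow; the same libraries without the block gave 5 and 40, 5 and 24, and 19 and 2.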
